A study of Rattus norvegicus with 6 samples.

Results

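The aminoacyl-tRNA synthetase genes of the rat were followed in sensory neurons after removal of the perirenal fat. Members were the protein-coding genes whose symbols name a synthetase, together with the scaffold proteins Aimp1 and Aimp2 and the selenocysteine enzyme Sepsecs. They numbered 40 of the 25689 genes in the count table, 24 of them cytosolic and 16 mitochondrial, and all 40 passed the filter on low counts. The symbol pattern did not take in Fars2, the mitochondrial phenylalanyl-tRNA synthetase, which is therefore given as a non-member, and Gars and Kars were counted as cytosolic although each serves both compartments from a single gene. In this table Aars, Cars, Eprs, Gars and Kars are older symbols of the genes now called Aars1, Cars1, Eprs1, Gars1 and Kars1.

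The neurons came from spontaneously hypertensive rats (SHRs), a strain with inherited high blood pressure, and were taken from the dorsal root ganglia (DRGs) at levels L1-L2. The rats were labelled as wild type and 6 to 8 weeks of age, while the study's methods give an older age at purchase. A group of 3 samples came from rats that underwent perirenal adipose tissue ablation (PRATA) and a group of 3 from rats that underwent a sham operation, and the comparison addresses what loss of this fat does to gene expression in neurons of these ganglia, some of which project to it. By the study's methods the neurons were isolated weeks after the operation, so acute effects were not measured. The ganglia were digested and the neurons separated from glia by their slower adhesion in culture, so other cells of the ganglion can remain. Ribosomal RNA was depleted, strand-specific total RNA libraries were sequenced and reads were counted per gene. The labels do not say whether the samples of a group came from separate animals, so p-values measure the spread between these samples, which may be partly technical.

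The libraries held between 5892967 counts (sham replicate 2) and 15226952 counts (sham replicate 1), and a count of 3 in a library corresponded to between 0.197 and 0.509 CPM (counts scaled to a common library size). In PRATA replicate 3 and sham replicate 1, 0.0601% and 0.0281% of the counts fell on the most abundant copy of the 7SL RNA gene, against 1.34% to 1.69% in the other 4 libraries. This split crossed the operations, and results are also given without these libraries. The summed level of 20 sensory neuron markers was 14980 to 22880 CPM in PRATA and 10480 to 16250 CPM in sham. Those 20 genes all had a log2 fold change above 0, 5 of them at an unadjusted edgeR p under 0.05, and none was at 0 in all libraries. Of all genes tested, 52.0% lay above 0 and 48.0% below. At that p 8.19% of all genes were higher and 10.1% lower, shares that also apply to the markers below. The 8 satellite glia markers summed to 588.6 to 1194 CPM in PRATA and 670.4 to 1338 CPM in sham, with 8 of 8 log2 fold changes below 0 and none past that p. Fibroblast markers summed to 1150 to 3425 CPM in PRATA and 2049 to 2993 CPM in sham. Of 9 tested, 7 were below 0 and 1, Postn (log2 fold change -1.78), was lower at that p. Of 12 Schwann cell markers, 3 were higher and 1, Sox10 (log2 fold change -1.64), was lower at that p, and 9 of 10 macrophage markers lay above 0 with none past it. Of 9 endothelial markers tested, 8 lay above 0 and 1, Vwf (log2 fold change 1.47), was higher at that p. No mural or adipocyte marker tested passed it. Schwann cell, macrophage, endothelial, mural and adipocyte markers had summed ranges that overlapped between PRATA and sham, and adipocyte markers did not exceed 9.21 CPM in any library. In bulk samples fewer cells of a type and less RNA per cell cannot be told apart.

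Aminoacyl-tRNA synthetases join each amino acid to its transfer RNA (tRNA), the step that puts the genetic code into effect. Most amino acids are served by separate nuclear genes for the cytosolic and the mitochondrial enzyme, and the enzymes fall into a pair of structural classes, I and II. In animals several cytosolic enzymes sit in a multisynthetase complex held together by the scaffolds encoded by Aimp1, Aimp2 and Eef1e1. Many cytosolic synthetase genes are known targets of ATF4, the transcription factor of the amino acid response, which with C/EBP partners binds a composite DNA element. Dominant variants in several cytosolic synthetase genes cause inherited peripheral neuropathy, a disorder in which the long axons of DRG and motor neurons degenerate.

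Since that element is a known site of shared control of these genes, their promoters were searched for it. A RefSeq promoter (GRCr8, 250 bases before to 50 after the annotated start, in the direction of the gene) was matched by symbol for 35 of the 40 members, 20 cytosolic and 15 mitochondrial. Rars1, Sepsecs and Gars were among those with no entry. The composite element TGATGNAA, searched on both strands, was found in 7 of 20 cytosolic promoters (Tars1, Mars1, Nars1, Iars1, Yars1, Cars and Aars) and in 0 of 15 mitochondrial promoters, against 3.98% of all 33469 promoters of the same length. Windows around it are shown for 5 of these genes so that the element can be compared between them, with the element, or its reverse complement, in capitals. The coordinates are on GRCr8 and the strand is that of the gene.
Tars1, chr2:62114811-62114840, minus strand, 27 bases upstream of the start: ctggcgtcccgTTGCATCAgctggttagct
Mars1, chr7:65023752-65023781, minus strand, 17 bases upstream: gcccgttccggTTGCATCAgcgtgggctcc
Iars1, chr17:15193658-15193687, minus strand, 24 bases upstream: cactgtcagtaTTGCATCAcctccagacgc
Yars1, chr5:146820190-146820212, plus strand, just past the start: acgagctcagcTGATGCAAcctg
Cars, chr1:208225334-208225363, minus strand, just past the start: cggcgccgcggTTGCATCAgattctggaaa
The same octamer, TTGCATCA or its reverse complement TGATGCAA, stood in all 5 windows shown. The search fixed every letter except the base written N, so only that base could differ. Aars, not shown, held TTGCATCA and, at a second site, TTTCATCA.

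A whole promoter is shown for Tars1, which was among the lowest cytosolic genes after PRATA and held both the composite element and an E-box, and for Aars2, which was among the highest mitochondrial genes and held none of the motifs searched. The promoter of Eprs, which had the lowest log2 fold change of all members (-0.92), also held none of these motifs. That of Aars (-0.09) held both the composite element and an E-box. In the Tars1 sequence, capitals mark the composite element and the E-box, in that order.
Tars1, chr2:62114753-62115052, minus strand: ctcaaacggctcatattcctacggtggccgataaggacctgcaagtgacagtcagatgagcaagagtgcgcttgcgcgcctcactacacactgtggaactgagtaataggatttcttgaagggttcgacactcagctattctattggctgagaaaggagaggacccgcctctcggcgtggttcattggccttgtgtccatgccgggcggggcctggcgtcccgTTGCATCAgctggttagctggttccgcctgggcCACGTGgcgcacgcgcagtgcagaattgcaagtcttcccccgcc
Aars2, chr9:22993487-22993786, minus strand: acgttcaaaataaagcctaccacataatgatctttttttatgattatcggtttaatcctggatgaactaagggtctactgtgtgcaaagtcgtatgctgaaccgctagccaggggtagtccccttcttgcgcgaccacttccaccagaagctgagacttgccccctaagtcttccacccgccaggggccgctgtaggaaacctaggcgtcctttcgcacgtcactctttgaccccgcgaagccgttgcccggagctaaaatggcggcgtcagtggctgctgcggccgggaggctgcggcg

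The E-box CACGTG, the core site of MYC and its relatives, was in 5 of 20 cytosolic promoters (Tars1, Vars1, Iars1, Farsb and Aars), in 1 of 15 mitochondrial promoters (Ears2) and in 6.42% of all promoters. The ETS site CCGGAAG was in 11 of 20 cytosolic and 6 of 15 mitochondrial promoters, against 8.75% of all. The NRF1 site GCGCATGC was in 0 of 20 cytosolic promoters, in 2 of 15 mitochondrial promoters (Vars2 and Wars2) and in 2.47% of all promoters. All were searched on both strands, no motif holds another, and the promoters were not matched for base composition, so these shares describe letters and no binding was measured. The median log2 fold change after PRATA was -0.40 for the 7 cytosolic genes with the composite element and -0.33 for the 13 matched cytosolic genes without it. For the same matched cytosolic genes, the median was -0.39 with the E-box and -0.34 without it. With the ETS site it was -0.34, and without it -0.36. These cytosolic differences in the median were small. Among the 15 matched mitochondrial genes, only the ETS site was in more than 2 promoters. There the median was 0.03 with the site (6 genes) and 0.30 without it, a wider gap. None of these differences was tested. The promoters of Hars1 and Hars2, the cytosolic and mitochondrial histidyl enzymes, overlap by 243 bases on opposite strands.

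After PRATA, nearly all cytosolic synthetase genes had lower values than in sham, and the mitochondrial ones lay on both sides of 0. Among cytosolic members 23 of 24 had a log2 fold change (PRATA minus sham) below 0, against 48.0% of the 14919 genes tested, and their median was -0.36 against 0.03 for all genes tested. At an unadjusted p under 0.05, 6 of 24 cytosolic members (25%) were lower, among them the arginyl, threonyl, glutamyl-prolyl and methionyl enzymes and Sepsecs, against 10.1% of all genes in that direction, and 0 of 24 were higher, against 8.19%. Among mitochondrial members 10 of 16 (62.5%) lay above 0, against 52.0% of all genes tested, the median was 0.16, and the alanyl, valyl and leucyl enzymes were higher at that threshold, 3 of 16 (18.8%), with 0 of 16 lower. That count was 2 in 8 of the 9 alternatives that kept all 6 samples and used no replicate block. No synthetase gene, and no gene of the table, passed an adjusted p of 0.05 in edgeR's quasi-likelihood test. The smallest adjusted p was 0.168 among cytosolic members, 0.222 among mitochondrial members and 0.156 over all genes. No member had an absolute log2 fold change over 1, while 4.40% of all genes exceeded 1 with an unadjusted p under 0.05.

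**Figure D1:**
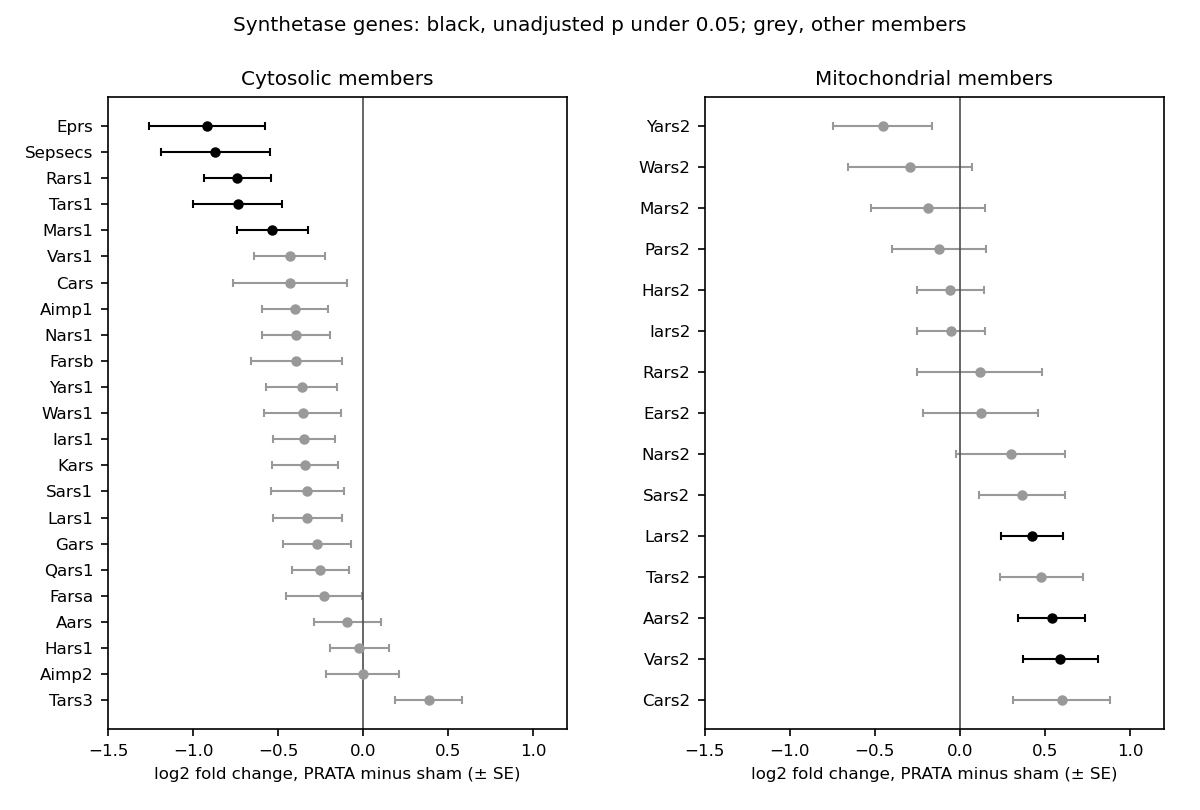
Log2 fold change (PRATA minus sham, 3 samples per group, horizontal axis) of 23 of the 24 cytosolic and 15 of the 16 mitochondrial members, with bars for the standard error; black marks an unadjusted edgeR p under 0.05. Cytosolic genes lie to the left of 0 except Tars3, and 9 of the 15 mitochondrial genes shown lie to the right.

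PRATA and sham samples did not overlap for 4 cytosolic members, all lower after PRATA (Rars1, Sepsecs, Mars1 and Iars1), which is 16.7% of the group against 11.2% of all genes tested. Mitochondrial members without overlap were higher in 4 cases (Aars2, Vars2, Lars2 and Cars2), 25% against 11.6% of all genes, and lower in 1 case (Yars2). With 3 samples per group the exact permutation test of a single gene cannot give a two-sided p below 0.10, which is the value each of these 9 genes reached.

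Rars1 encodes the cytosolic arginyl-tRNA synthetase, a member of the complex. Its level was 58.2, 44.5 and 44.8 CPM in PRATA replicates 1 to 3 and 76.6, 71.2 and 98.05 CPM in sham replicates 1 to 3. All PRATA samples lay below all sham samples. The log2 fold change was -0.74 ± 0.20 (SE), a ratio of 0.599, with an edgeR unadjusted p of 0.00535 and an adjusted p of 0.168.

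Eprs encodes the glutamyl-prolyl-tRNA synthetase, a single polypeptide of the complex that charges both amino acids, and had the lowest fold change of all members. It measured 524, 540 and 474 CPM in PRATA and 939, 532 and 1433 CPM in sham. Sham replicates 1 and 3 were far above every PRATA sample, while sham replicate 2 lay within the PRATA range. Its mean difference was -0.92 ± 0.34 on the log2 scale and the ratio 0.53 (edgeR adjusted p = 0.227).

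Tars1, the cytosolic threonyl-tRNA synthetase, acts outside the complex and showed the same arrangement of samples. Its levels were 137, 153 and 144 CPM in PRATA and 291, 151 and 283 CPM in sham. Sham replicate 2 again fell between PRATA samples. Its log2 fold change was -0.74 ± 0.26, a ratio of 0.6 (edgeR adjusted p = 0.217).

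Sepsecs is not a synthetase in the strict sense; it converts phosphoseryl-tRNA to selenocysteinyl-tRNA, the last step in making that amino acid. Levels were 6.20, 8.29 and 7.59 CPM in PRATA and 11.7, 8.90 and 19.7 CPM in sham. The groups did not overlap, but the gap between PRATA replicate 2 and sham replicate 2 was small. The log2 fold change was -0.87 ± 0.32, a ratio of 0.548 (edgeR adjusted p = 0.227), and it rests on 48 to 209 counts per library.

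Mars1, the methionyl enzyme that also charges the initiator tRNA, is in the complex. It was at 72.5, 70.1 and 74.8 CPM in PRATA and 87.6, 89.9 and 137 CPM in sham. The PRATA samples were close together and below every sham sample, with sham replicate 3 well above the others. On the log2 scale the difference was -0.53 ± 0.21 (ratio 0.691, edgeR adjusted p = 0.237).

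The 10 members in the multisynthetase complex were all below 0 with a median log2 fold change of -0.37, and 4 of them passed the unadjusted threshold, among them Rars1, Eprs and Mars1, against the 10.1% of all genes given above. The 14 cytosolic members outside it had 13 below 0, a median of -0.36 and 2 past the threshold (Tars1 and Sepsecs), a share nearer to that of all genes. The medians inside and outside the complex were nearly equal. Of the scaffolds, Aimp1 was at 57.8, 44.4 and 52.2 CPM in PRATA and 55.8, 68.1 and 79.8 CPM in sham (log2 fold change -0.40 ± 0.19), with PRATA replicate 1 above sham replicate 1. Aimp2 was at 19.9, 20.6 and 27.8 CPM in PRATA and 27.2, 21.4 and 19.8 CPM in sham, a log2 fold change of 0.00 (-0.003 ± 0.21). The scaffolds thus had unlike values, and the groups overlapped for both. The remaining scaffold, Eef1e1, is not a member by symbol and was at 21.8, 17.8 and 20.1 CPM in PRATA and 35.2, 27.0 and 33.1 CPM in sham. Its groups did not overlap, and its log2 fold change was -0.68 ± 0.18 (edgeR unadjusted p = 0.0055, adjusted p = 0.168). The other complex members were Iars1, Kars, Lars1 and Qars1 with log2 fold changes of -0.35, -0.34, -0.33 and -0.25. Iars1, the isoleucyl enzyme, was at 173, 148 and 168 CPM in PRATA and 199, 181 and 242 CPM in sham, without overlap between groups (edgeR adjusted p = 0.337).

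**Figure D2:**
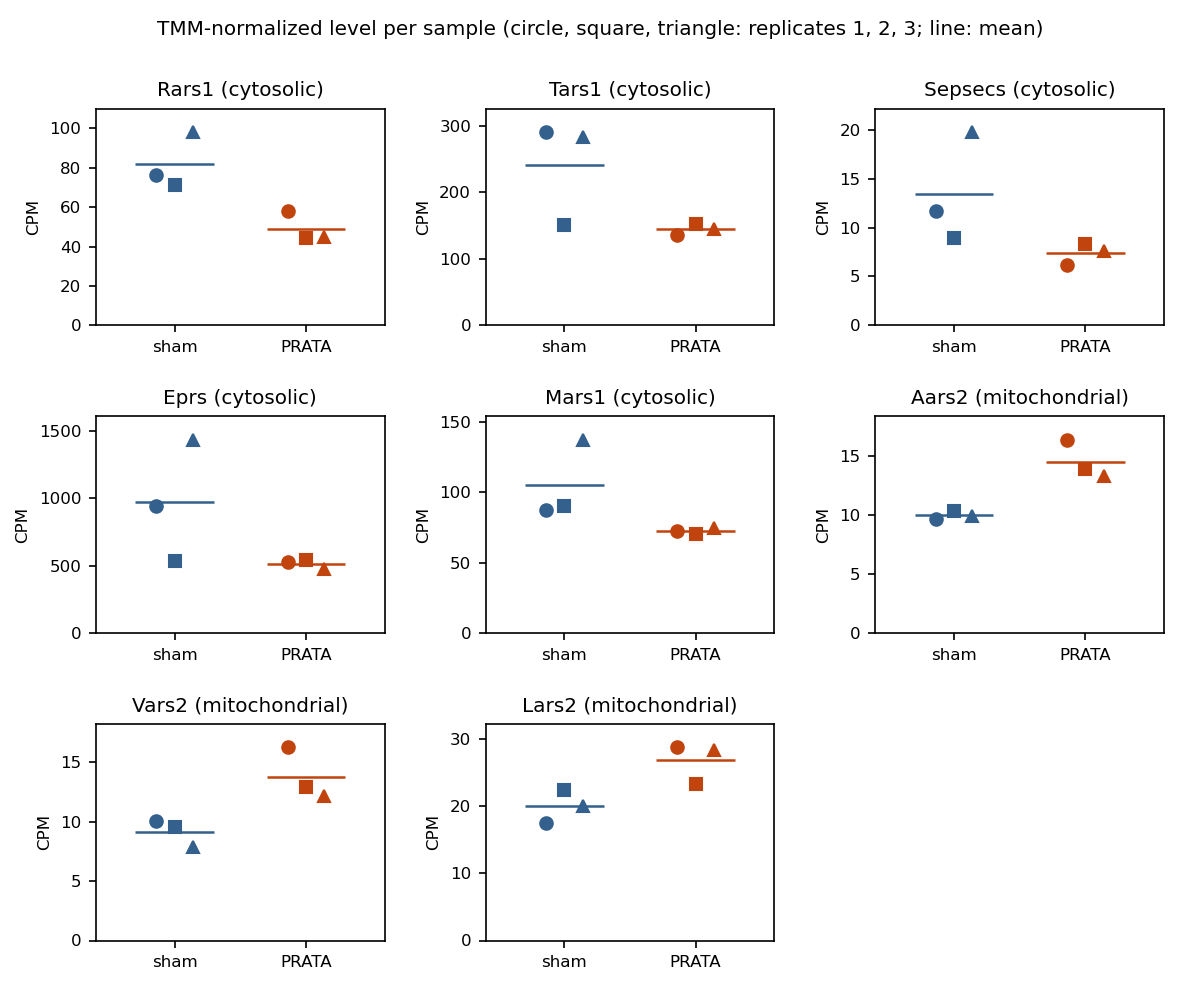
CPM per sample (vertical axis from 0) of 8 of the 9 members with an unadjusted edgeR p under 0.05, by operation; circles, squares and triangles are replicates 1, 2 and 3 and lines are group means. For Eprs and Tars1 sham replicate 2 sits at the PRATA level, and for Aars2, Vars2 and Lars2 every PRATA sample lies above every sham sample.

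The 6 cytosolic genes tied to inherited neuropathy were all below 0, with a median of -0.31, and 1 of them, Mars1, passed the unadjusted threshold. Of all genes tested, 48.0% were below 0 and 10.1% were lower at that threshold. Gars, the glycyl enzyme and the longest known of these neuropathy genes, was at 201, 195 and 236 CPM in PRATA and 244, 212 and 304 CPM in sham (log2 fold change -0.27 ± 0.20). Yars1, the tyrosyl enzyme, was at 116, 118 and 119 CPM in PRATA and 174, 108 and 170 CPM in sham (-0.36 ± 0.21). For Gars PRATA replicate 3 lay above sham replicate 2, and for Yars1 sham replicate 2 lay below every PRATA sample. Wars1, the tryptophanyl enzyme, was at 116, 131 and 130 CPM in PRATA and 141, 125 and 217 CPM in sham (-0.36 ± 0.23). Aars, the alanyl enzyme, was at 330, 307 and 284 CPM in PRATA and 342, 270 and 370 CPM in sham (-0.09 ± 0.20). Hars1, the histidyl enzyme, was at 125, 108 and 117 CPM in PRATA and 101, 116 and 138 CPM in sham (-0.02 ± 0.18). The values of Aars and Hars1 were interleaved between groups, and no difference was detectable for either at this depth and spread.

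The other cytosolic enzymes were Vars1 (-0.43), Cars (-0.43), Nars1 (-0.40), Farsb (-0.39), Sars1 (-0.33) and Farsa (-0.23), which serve valine, cysteine, asparagine, phenylalanine (both Fars subunits) and serine. None of them reached an unadjusted p under 0.05; the smallest, 0.071, belonged to Vars1, at 84.7, 91.6 and 99.6 CPM in PRATA and 124, 94.0 and 154 CPM in sham. Tars3 was the only cytosolic member above 0 and encodes a second cytosolic threonyl-tRNA synthetase. Its levels were 31.5, 22.5 and 30.6 CPM in PRATA and 21.1, 24.2 and 19.6 CPM in sham, which gave 0.38 ± 0.20 on the log2 scale (edgeR adjusted p = 0.331). The cytosolic threonyl enzymes Tars1 and Tars3 therefore stood at opposite sides of 0, and the difference between them was not tested. By structural class, the 10 cytosolic class I genes had a median of -0.40 with 3 lower at the unadjusted threshold. The 11 class II genes had a median of -0.33 with 2 lower at it, against 10.1% of all genes tested. The classes were not compared by a test.

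Per sample, the cytosolic pattern was carried unequally by the sham libraries. The summed level of the 24 cytosolic members was 3029, 2912 and 2895 CPM in PRATA replicates 1 to 3 and 3990, 3054 and 5124 CPM in sham replicates 1 to 3. The PRATA samples were nearly alike and sham replicate 2 was just above them, while sham replicate 3 was far above. Sham replicate 3 exceeded all PRATA samples for 22 of 24 cytosolic members, sham replicate 1 for 15 and sham replicate 2 for 8. Sham replicate 2 was also the shallowest library and had the highest summed sensory neuron marker level of the sham group (16250 CPM, against 10480 and 13020 CPM), and the part of neuron content or depth in these values was not tested. Without sham replicate 2, 12 cytosolic members were lower at an unadjusted p under 0.05, against 14.1% of all genes, and Tars1 and Eprs passed an edgeR adjusted p of 0.05 (0.0305 and 0.0404), as did 721 genes of the table. Without PRATA replicate 1, PRATA replicate 3 or sham replicate 3, 1 cytosolic member was lower at that p, against 5.439%, 7.499% and 5.572% of all genes.

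**Figure D3:**
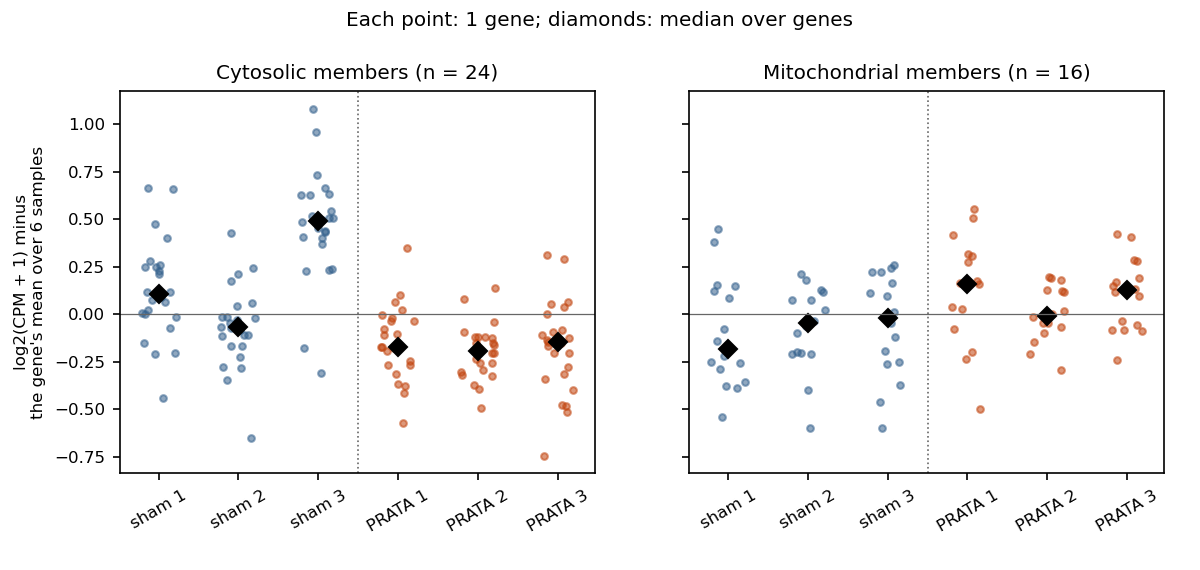
Each point is 1 gene's log2(CPM + 1) in a sample minus that gene's mean over the 6 samples (vertical axis), for cytosolic and mitochondrial members, and diamonds are medians over genes. The cytosolic median is -0.17, -0.20 and -0.15 in PRATA replicates 1 to 3 and 0.10, -0.07 and 0.49 in sham replicates 1 to 3.

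The mitochondrial enzymes charge the tRNAs encoded by mitochondrial DNA, on which the respiratory chain subunits made in the organelle depend. Aars2, the mitochondrial alanyl enzyme, was at 16.4, 13.9 and 13.3 CPM in PRATA and 9.67, 10.3 and 9.92 CPM in sham. The sham samples were tightly grouped and below every PRATA sample. The log2 fold change was 0.54 ± 0.20, a ratio of 1.45 (edgeR unadjusted p = 0.0247, adjusted p = 0.222).

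Vars2, the mitochondrial valyl enzyme, was at 16.3, 12.9 and 12.2 CPM in PRATA and 10.02, 9.52 and 7.84 CPM in sham, and its groups did not overlap. Its fold change on the log2 scale was 0.59 ± 0.22, a ratio of 1.51 (edgeR adjusted p = 0.229). Lars2, the mitochondrial leucyl enzyme, was at 28.8, 23.3 and 28.3 CPM in PRATA and 17.6, 22.5 and 20.02 CPM in sham. PRATA replicate 2 was only slightly above sham replicate 2. The log2 fold change was 0.42 ± 0.18, a ratio of 1.34 (edgeR adjusted p = 0.269).

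Cars2, the cysteinyl enzyme, had the highest log2 fold change of all members, 0.60 ± 0.29 (edgeR adjusted p = 0.31). It was at 6.58, 5.90 and 6.41 CPM in PRATA and 4.77, 4.68 and 3.02 CPM in sham, without overlap. Yars2, the tyrosyl enzyme, had the lowest mitochondrial value, -0.46 ± 0.29 (edgeR adjusted p = 0.433). It was at 3.49, 5.34 and 4.98 CPM in PRATA and 7.67, 5.93 and 5.38 CPM in sham, so PRATA replicate 2 lay just under sham replicate 3. These are low counts, 30 to 81 per library for Cars2 and 27 to 111 for Yars2.

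The remaining mitochondrial members had no unadjusted p under 0.05 and their groups overlapped. Those above 0 included Tars2 (0.48), Sars2 (0.37), Nars2 (0.30), Ears2 (0.12) and Rars2 (0.12). Below 0 were Wars2 (-0.29), Mars2 (-0.19), Pars2 (-0.12), Hars2 (-0.06) and Iars2 (-0.05). Fars2, the non-member, was at 8.52, 5.98 and 5.69 CPM in PRATA and 7.12, 8.27 and 7.93 CPM in sham, a log2 fold change of -0.21 ± 0.26 with overlapping groups. The summed mitochondrial level was 212.1, 179.9 and 194.4 CPM in PRATA and 153.1, 183.1 and 175.6 CPM in sham, so PRATA replicate 2 lay below sham replicate 2. Without PRATA replicate 1 or sham replicate 3, 0 of the 16 were higher at an unadjusted p under 0.05, against 3.474% and 3.763% of all genes. Without sham replicate 1, or without both PRATA replicate 3 and sham replicate 1, the number was 1, against 6.478% and 5.976%. In the latter 4 samples the mitochondrial median was 0.07 and the cytosolic median -0.44, with 4 cytosolic members lower at that p, against 6.902% of all genes.

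For 13 amino acids a cytosolic and a mitochondrial enzyme are set side by side, so that the same charging reaction could be compared in both compartments. The cytosolic log2 fold change was the lower of the pair for 11 of 13 amino acids, and for 8 the cytosolic enzyme was below 0 and the mitochondrial one above. Threonine has a further cytosolic enzyme, Tars3, which at 0.38 lay close to Tars2 and is not used as its pair. With Tars1 as the pair, the widest gaps were for threonine (Tars1 -0.74, Tars2 0.48), cysteine (Cars -0.43, Cars2 0.60) and valine (Vars1 -0.43, Vars2 0.59). Arginine (Rars1 -0.74, Rars2 0.12), leucine (Lars1 -0.33, Lars2 0.42), serine (Sars1 -0.33, Sars2 0.37), asparagine (Nars1 -0.40, Nars2 0.30) and alanine (Aars -0.09, Aars2 0.54) had the same arrangement. Methionine (Mars1 -0.53, Mars2 -0.19), isoleucine (Iars1 -0.35, Iars2 -0.05) and tryptophan (Wars1 -0.36, Wars2 -0.29) had both enzymes below 0. The exceptions were histidine (Hars1 -0.02, Hars2 -0.06) and tyrosine (Yars1 -0.36, Yars2 -0.46). The ratio of summed cytosolic to summed mitochondrial CPM was 14.3, 16.2 and 14.9 in PRATA and 26.1, 16.7 and 29.2 in sham; sham replicate 2 was again next to the PRATA samples. The difference between compartments was described and not tested.

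**Figure D4:**
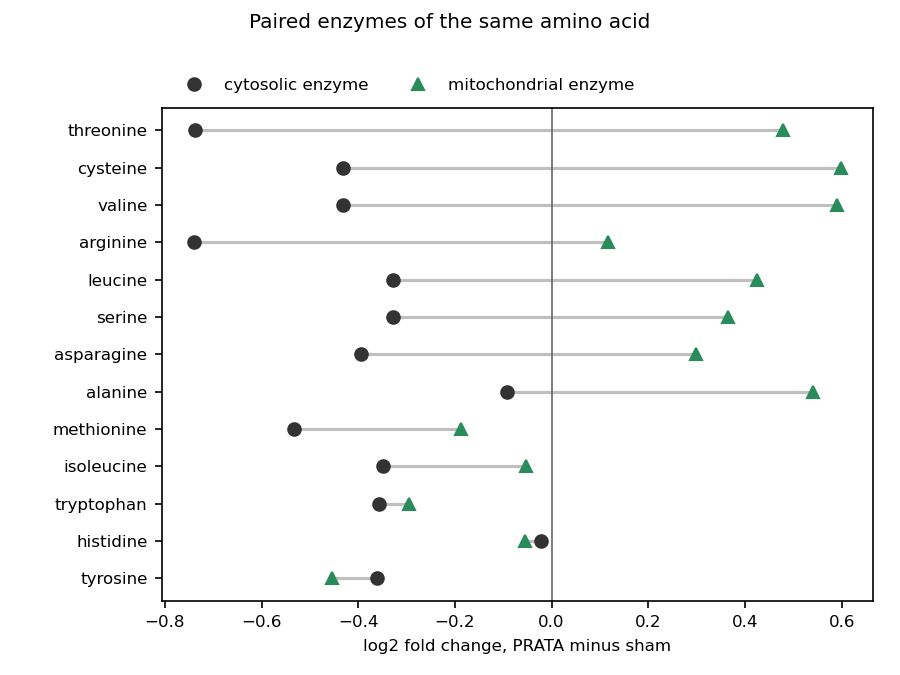
Log2 fold change (PRATA minus sham, horizontal axis) of the cytosolic enzyme (circle) and the mitochondrial enzyme (triangle) of 13 amino acids. The circle lies to the left of the triangle for 11 of 13 amino acids, the exceptions being histidine and tyrosine.

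Genes that act on tRNA before charging were read beside the same shares over all genes tested, 48.0% below 0, 10.1% lower and 8.19% higher at an unadjusted p under 0.05, which also apply to the lists after them. Of 49 tRNA modification genes tested, 39 were below 0, 13 were lower at that p and 0 higher, with a median of -0.36. The smallest p-values were those of Qtrt2 (log2 fold change -1.38), a subunit of the enzyme that inserts queuine, Nsun2 (-0.85), a cytosine methyltransferase, and Pus7 (-1.08), a pseudouridine synthase, each with an edgeR adjusted p of 0.156. Qtrt2 was at 12.7, 15.8 and 16.6 CPM in PRATA and 41.0, 25.0 and 51.2 CPM in sham, and its groups did not overlap. Of 23 tRNA processing and export genes, 20 were below 0, 5 were lower at that p and 0 higher, with a median of -0.27. They included Pop1 (-1.07), a subunit of RNase P, and the exporters Xpo5 (-0.61) and Xpot (-0.90). Xpot, the nuclear export receptor for tRNA, was at 72.2, 73.4 and 72.7 CPM in PRATA and 155, 75.7 and 175 CPM in sham, with sham replicate 2 again close to the PRATA samples.

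Steps after charging were mixed. Of 8 elongation factor genes, 3 were lower at an unadjusted p under 0.05, namely Eef1a1 (-0.57), which carries charged tRNA to the ribosome, and its exchange factor subunits Eef1b2 (-0.64) and Eef1d (-0.59). Eef2k (0.56), the kinase that restrains elongation, was higher at that p. Eef1a2 (0.49) lay above 0 without passing (edgeR unadjusted p = 0.081). Its groups did not overlap, with PRATA replicate 2 at 658 CPM and sham replicate 2 at 644 CPM. In the selenocysteine pathway, to which Sepsecs belongs, 3 of 7 genes were lower and 0 higher, with a median of -0.36: Secisbp2 (-0.87), Pstk (-0.44), which makes the phosphoseryl-tRNA that Sepsecs uses, and Trnau1ap (-0.52). Sars1, a member, is also in that list. Of 7 trans-editing genes and their relatives, 1 passed the threshold, Dtd1 (0.50, higher), which removes D-amino acids from tRNA. The 13 mitochondrial translation and charging partners had 0 past the threshold in either direction and a median of 0.18, with 9 above 0.

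In the amino acid response list 6 of 29 genes were lower and 3 higher at an unadjusted p under 0.05, the latter near the 8.19% of all genes, with a median of -0.35. Eif2s1 (-0.89), the translation initiation factor subunit whose phosphorylation starts the response, and Psat1 (-1.17), an enzyme of serine synthesis, were lower, whereas the stress-induced transcription factor Atf3 (1.43) was higher. Psat1 was at 14.6, 17.3 and 15.02 CPM in PRATA and 43.0, 17.8 and 44.4 CPM in sham, and Atf3 at 278, 328 and 108 CPM in PRATA and 125, 82.7 and 56.5 CPM in sham. For Atf3, PRATA replicate 3 fell below sham replicate 1. Atf4, named after its values were seen because it binds the composite element, was at 504, 619 and 410 CPM in PRATA and 766, 349 and 604 CPM in sham (log2 fold change -0.17 ± 0.31), with overlapping groups. Of 13 amino acid transporter genes tested, 7 were below 0 and 6 above, 5 were lower at an unadjusted p under 0.05 and 0 higher, and the median was -0.52. The smallest p-values were those of the cystine transporter Slc7a11 (-1.46), Slc1a4 (-0.69) and Slc3a2 (-0.80), the heavy chain shared by several transporters, while Slc38a1 (0.64) had the highest fold change without passing. In the mTORC1 and MYC list 2 of 13 were lower (Myc -0.80, Max -0.58) and 1 higher (Mycn 0.93), with a median of 0.08. None of these genes passed an edgeR adjusted p of 0.05.

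**Figure D5:**
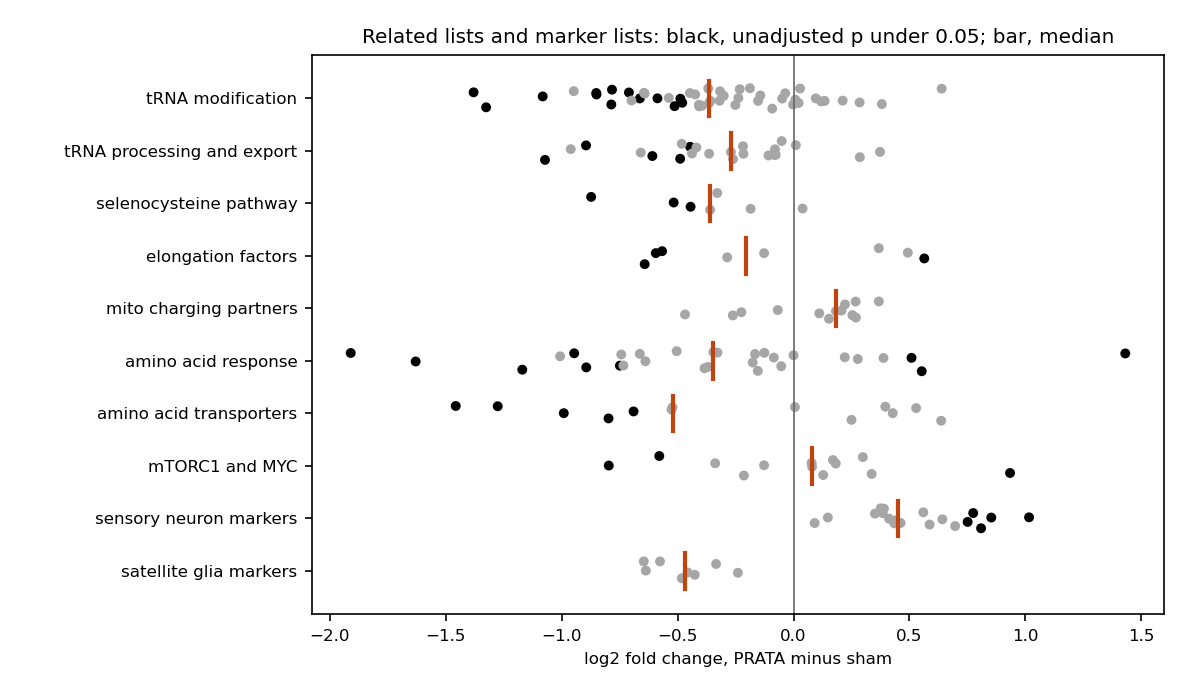
Log2 fold change (PRATA minus sham, horizontal axis) of every tested gene of 8 related lists and of the sensory neuron and satellite glia markers; black points have an unadjusted edgeR p under 0.05 and bars are list medians. The tRNA modification, tRNA processing, selenocysteine and amino acid transporter lists have black points below 0 and none above, and all 20 sensory neuron markers lie above 0.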

How the data were processed

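The deposited table, made by the authors, holds raw read counts per gene with Ensembl identifiers and biotypes. The study's methods name HISAT2, StringTie and Cuffdiff and the submitters' processing notes name STAR 2.7.3a, RSEM and DESeq2; the tool behind these counts, its annotation and its build are not given in the sources used here. Genes were kept by edgeR's filterByExpr (minimum count 10, minimum total 15), leaving 14919 of 25689. Counts were scaled by TMM (trimmed mean of M-values), and PRATA was compared with sham by edgeR 4.0.16's quasi-likelihood test (two-sided, Benjamini-Hochberg over all genes tested) in R 4.3.3. Alternatives used limma 3.58.1 and DESeq2 1.42.0.

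The members, gene lists and motifs were chosen with earlier results of these data known. Values are given in every sample for members with an unadjusted p under 0.05. They are also given for the lowest and highest of each compartment, the neuropathy genes and the scaffolds. Up to 3 genes with the smallest p are named from each related list. Single further members (Iars1, Vars1), Atf4, Eef1a1, Eef1a2, Slc38a1, Sox10, Postn and Vwf were added after their values were seen. Transcript lengths were not used here, so levels were not compared between genes, and the planned naming of genes by level per length was not applied. Motifs were searched in RefSeq promoters of GRCr8 with Python 3.11.15. Of the members, 2 enter the group counts, medians and sums but are not reported singly here. Replicate numbers were not used to pair samples.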

Additional observations from a re-analysis of the deposited data

How the results depend on the processing

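Of 17 alternatives (normalization, filter, test, replicate block, each sample left out, protein-coding genes alone, and 4 samples), all kept the cytosolic median below 0 (-0.44 to -0.21) and the mitochondrial median above 0 (0.07 to 0.27), and 31 of 40 members kept their sign in all. DESeq2 had 1 cytosolic member lower at an adjusted p under 0.05 (Rars1), among 728 genes called over the table. limma voom with sample quality weights had 14 cytosolic members lower and 1 higher at an unadjusted p under 0.05, 2 lower at an adjusted p (Rars1 and Tars1), and 5 mitochondrial members higher, while 15.3% of all genes were lower, 15.6% higher and 7.86% past an adjusted p; Aimp2 was then 0.006 and Rars2 -0.023. With the replicate number as a block, 2 of 24 cytosolic members were lower and 0 of 16 mitochondrial members higher at an unadjusted p under 0.05. Of all genes tested, 6.079% (907) were lower and 4.162% (621) higher in that fit. Same-numbered samples did not deviate together (r = -0.39, -0.11 and -0.36). These few correlations gave no sign of pairing by number but cannot exclude it. Without PRATA replicate 3 and sham replicate 1 together, 1 mitochondrial member was higher, the mitochondrial median was 0.066 and Nars2 was -0.004.

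Leaving out each sample in turn gave 1 to 12 cytosolic members lower and 0 to 1 higher at an unadjusted p under 0.05. At that p, 5.439% to 14.13% of all genes were lower and 3.474% to 13.43% higher in the same fits. Between 0 and 2 cytosolic members were lower at an adjusted p under 0.05, against 0 to 721 genes of the table. Mitochondrial members higher at the unadjusted p numbered 0 to 4, and the mitochondrial median was 0.081 to 0.267. Members near 0 changed sign in these fits: Aars (-0.21 to 0.012), Aimp2 (-0.17 to 0.13), Farsa (-0.39 to 0.014), Hars1 (-0.15 to 0.11), Ears2 (-0.10 to 0.29), Hars2 (-0.21 to 0.043), Iars2 (-0.24 to 0.064) and Rars2 (-0.13 to 0.30). The cause of these shifts was not tested. Without a filter on low counts the median over all genes was -0.17 instead of 0.03. Depth limits the lowest mitochondrial members, which had as few as 13 counts in a library.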
